A study of Schmidtea mediterranea with 15 samples.

Results

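Regenerating trunk fragments of the planarian flatworm Schmidtea mediterranea, sampled 5 days into regeneration, were compared with whole intact juveniles. The members are the 3 libraries labelled day 5 and the 3 labelled juvenile, 6 of 15 libraries in all, taken by their titles. The other libraries are trunk fragments at day 0 and regenerating fragments at days 3 and 7, with 3 libraries each, and are used here to place the day 5 levels. All animals carry the label Sexual S2F2, a biotype of the species that reproduces sexually. The labels give neither the age of the juveniles or of the animals that were cut, nor whether a library came from 1 animal or a pool, so a p-value speaks of the spread among these libraries, part of which may be technical. Day 5 fragments and juveniles differ in body part (a healing trunk against a whole animal) and in stage at once, which these libraries cannot tell apart.

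Planarians rebuild missing body parts from neoblasts, dividing cells that include pluripotent stem cells and that give rise to every cell type of the body. A trunk piece has to form a new head and a new tail while its remaining tissue is remodelled to the size of the fragment. Sexual animals are hermaphrodites, and their testes, ovaries, yolk glands and copulatory organs mature only after hatching. The identifiers in the deposited table are not paired with gene names, so no marker of a tissue or cell type could be read and no role can be given to a transcript described below.

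Total counts were 36927291 to 59034917 in day 5 libraries and 25735815 to 37791352 in juvenile libraries. Each row of the table is a sequence record, called a transcript here, and several rows can stand for 1 gene. Of 92053 rows, 46736 had enough counts to be tested. CPM are counts scaled to a common library size, and neither CPM nor a share of counts is corrected for transcript length. A transcript is called higher or lower where the Benjamini-Hochberg adjusted p of edgeR's quasi-likelihood test, fitted on all 15 libraries, is under 0.05.

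Day 5 libraries were close to each other and far from juveniles. The root mean square log2 difference between libraries, over all tested transcripts, was 0.421 to 0.447 among day 5 libraries and 0.48 to 0.524 among juvenile libraries. Between day 5 and juvenile libraries it was 1.02 to 1.21, above every difference within either group. Day 5 libraries lay at 0.55 to 0.849 from day 0 libraries, at 0.429 to 0.556 from day 3 libraries and at 0.434 to 1.02 from day 7 libraries. The distance from day 5 to day 3 therefore overlapped that among day 5 libraries themselves. The biological coefficient of variation, the relative spread between replicates beyond counting error, was 0.113 at day 5 and 0.0772 in juveniles, with 0.238, 0.229 and 0.212 at days 0, 3 and 7.

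In each of 5 measures of the whole makeup of a library, the ranges of the 2 groups overlapped. Transcripts at 1 CPM or more numbered 22676, 23540 and 23656 in day 5 libraries and 23421, 22893 and 23387 in juvenile libraries, so the ranges overlapped. The share of counts in the 10 leading transcripts was 17.4% ± 0.712 at day 5 and 18.1% ± 0.907 in juveniles (SD, n = 3 each; two-sided exact permutation p = 0.3, adjusted over 5 measures 0.75). The effective number of transcripts, the exponential of the Shannon entropy, averaged 2620 ± 198 at day 5 and 2630 ± 180 in juveniles (two-sided exact permutation p = 1). With 3 libraries in each group the smallest p that this test allows is 0.1. The sign of the difference in detected transcripts turned with the detection level: the mean of day 5 less that of juveniles was 57 transcripts at 1 CPM and -1060 at 0.5 CPM.

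Transcript by transcript, the groups differed widely. At day 5, 5539 transcripts were higher than in juveniles (11.9% of those tested) and 3515 were lower (7.52%). The 5539 held 29.6% ± 0.441 of all counts at day 5, against 18.6% ± 0.447 in juveniles (SD, n = 3), while the 3515 held 12.9% ± 0.215 at day 5 and 18.6% ± 0.252 in juveniles. These shares describe sets chosen by the same comparison and carry no test. More reads from a transcript in whole tissue can come from more cells that carry it or from more RNA per cell, and these cannot be told apart. The count of higher transcripts was 3344 without juvenile replicate 1 and 2817 without juvenile replicate 2; that of lower transcripts was 2069 without day 5 replicate 2, and 2323, 1965 and 2158 without juvenile replicate 1, 2 and 3.

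The sizes of the differences were lopsided. Of the higher transcripts, 2617 were under 2-fold, 468 were between 2-fold and 4-fold, and 2454 (5.25% of those tested) were at least 4-fold higher at day 5; the 2922 of at least 2-fold were 6.25% of those tested. Of the lower transcripts, 2909 were under 2-fold, 537 were between 2-fold and 4-fold, and 69 (0.148% of those tested) were at least 4-fold lower. Over all tested transcripts, called or not, 1106 lay between 2-fold and 4-fold above juveniles and 2941 beyond 4-fold, so the higher side held fewer transcripts from 2-fold to 4-fold than beyond. On the lower side the order was the other way, with 863 between 2-fold and 4-fold and 71 beyond. The 2454 became 1241, 846 and 1484 without juvenile replicate 1, 2 and 3, and the 69 became 109 without day 5 replicate 3.

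**Figure D1:**
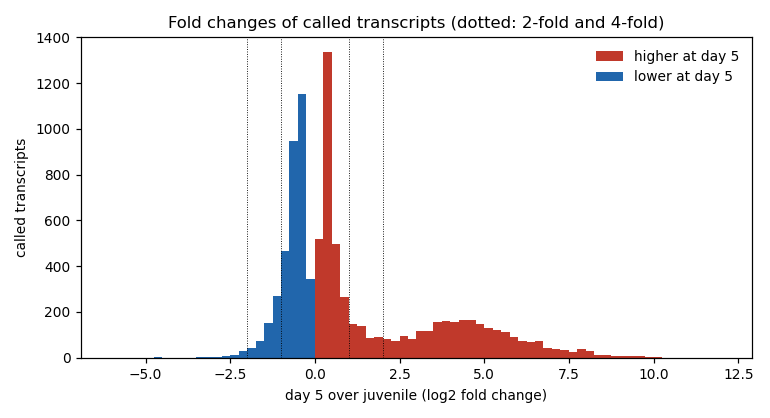
Number of called transcripts (vertical axis) by log2 fold change of day 5 over juvenile (horizontal axis), with transcripts higher at day 5 in red and those lower in blue. The higher side has a peak of small differences (2617 under 2-fold) and a broad second hump beyond 4-fold (2454), while only 69 transcripts lie beyond 4-fold on the lower side.

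Large differences were found at every level of abundance. Among the 23167 tested transcripts with a mean under 1 CPM over all 15 libraries, 2.39% were at least 4-fold higher at day 5, and among the 13438 at 1 to 10 CPM the share was 10.4%. It was 5.09% of the 8619 transcripts at 10 to 100 CPM and 4.3% of the 1512 at 100 CPM or more. Transcripts at least 2-fold lower at day 5 were mostly scarce: 425 of 606 had a mean under 1 CPM, and the 606 were 1.30% of those tested. The share called in either direction was larger in the more abundant classes, 34.3% higher and 17.6% lower at 100 CPM or more, against 3.47% and 3.38% under 1 CPM. Scarce transcripts give the test fewer counts, so these shares do not compare the biology of the classes.

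**Figure D2:**
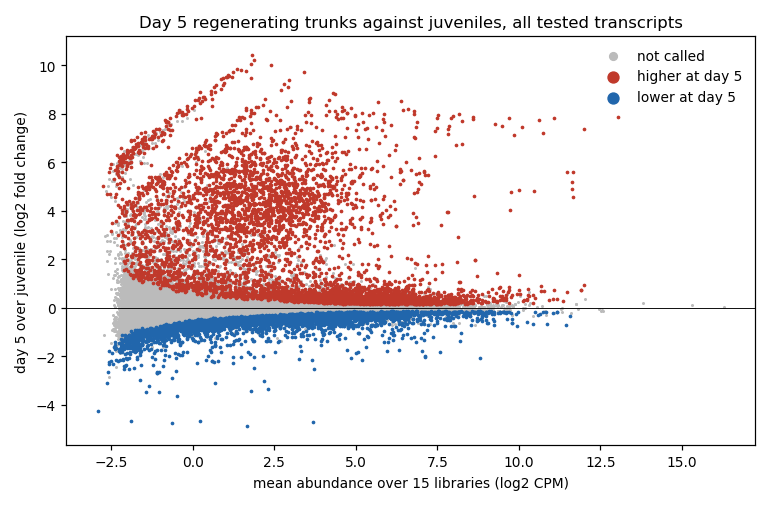
Log2 fold change of day 5 over juvenile (vertical axis) against mean abundance in log2 CPM over the 15 libraries (horizontal axis), 1 point per tested transcript. Transcripts higher at day 5 (5539, red) form a cloud above 2 on the vertical axis that thins out among the most abundant transcripts, beside a dense band of small differences; those lower (3515, blue) stay near the band.

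The transcripts at least 4-fold higher at day 5 had a median of 3.33 ± 0.77 CPM at day 5 and 0.138 ± 0.0251 CPM in juveniles (SD over the 3 library medians). By library, the medians were 2.51, 3.44 and 4.04 CPM at day 5 and 0.14, 0.111 and 0.161 CPM in juveniles. Together they took 7.25%, 6.65% and 7.21% of the counts of the day 5 libraries and 0.269%, 0.191% and 0.291% of the counts of the juvenile libraries. The median fold was 23.1. In 190 of the 2454 no juvenile library had a count, and with these alone set at the fold that 3 counts over the 3 juvenile libraries would give, and the others at their fitted fold, the median was 20.2. The highest library exceeded the lowest by a median factor of 1.68 at day 5, against 3.02 at day 0, 3.91 at day 3 and 8.36 at day 7; a call at day 5 favours transcripts that are even there. Libraries within the other trunk groups stood apart over these transcripts: medians were 5.26, 5.58 and 14.3 CPM at day 0, 1.71, 1.91 and 5.58 CPM at day 3, and 0.752, 0.222 and 1.7 CPM at day 7. With day 0 replicate 3, day 3 replicate 3 and day 7 replicate 2 left out together, a choice made after seeing the data, 2866 transcripts were at least 4-fold higher at day 5 than in juveniles and 80 at least 4-fold lower.

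A few transcripts carried much of that share. The 10 with the most counts at day 5 held 52.9% of the counts of the 2454 there. The leading one had 8910, 4830 and 6530 CPM at day 5 and 35.9, 19.6 and 31 CPM in juveniles, 7.87 apart on the log2 scale with an SE of 0.68 (edgeR adjusted p = 2.9e-05). Day 0 libraries had 16800 to 26800 CPM of it, day 3 libraries 7820 to 12100 CPM and day 7 libraries 1430 to 6520 CPM, so its day 5 range overlapped those of days 3 and 7 and lay below that of day 0. The next in counts went the other way over time, with 1210 to 1610 CPM in day 0 libraries, then 3160 to 4230 CPM in day 3, 4160 to 5690 CPM in day 5 and 4770 to 6890 CPM in day 7 libraries, against 86.9 to 165 CPM in juveniles (log2 fold change of day 5 over juvenile 5.18, SE 0.29, edgeR adjusted p = 9.2e-07). Both stood far above juveniles at day 5, on opposite courses.

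To place the day 5 difference in time, day 7 was set against day 0, a comparison that shares no library with day 5 against juveniles, although all libraries enter the estimate of the spread. Of the 2454 transcripts at least 4-fold above juveniles at day 5, 2315 (94.3%) had a lower and 70 (2.85%) a higher level at day 7 than at day 0 by edgeR's test, where 16.0% and 7.87% of all tested transcripts did. Here and below, the sets and all tested transcripts are not matched for abundance. Their median log2 fold change of day 7 over day 0 was -3.19, against 0.04 over all tested transcripts. The 70 stayed between 48 and 77 under the alternatives of scaling, filter, test, fit and left-out library that were run. The fitted fold was below 0 on the log2 scale for 2354 of the 2454 (95.9%), passing the test or not. The count of 2315 moved with the libraries and the fit: it was 2426 of 2866 (84.6%) without the same 3 libraries, 1220 of 2746 (44.4%) without day 0 replicate 3, 979 of 2345 (41.7%) without day 7 replicate 1, and 464 of 2504 (18.5%) when only the groups compared were fitted. Without juvenile replicate 1, 2 or 3 it was 1083 of 1241, 723 of 846 and 1339 of 1484. The 16.0% belongs to the fit of all 15 libraries. The matching share of all tested transcripts is not given for the other fits, so their percentages, 18.5% among them, cannot be set against it.

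**Figure D3:**
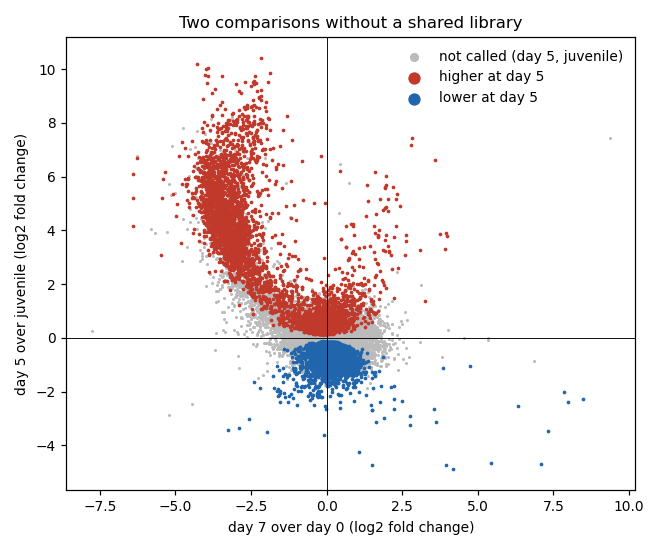
Log2 fold change of day 5 over juvenile (vertical axis) against log2 fold change of day 7 over day 0 (horizontal axis), 1 point per tested transcript. Of transcripts at least 4-fold higher at day 5 than in juveniles (red, above 2 on the vertical axis), 2315 lie in the upper left as called lower at day 7 than at day 0, and 70 in the upper right as called higher.

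The falling and the rising transcripts held similar shares of the counts at day 5. Of the counts of day 0 libraries the 2315 took 9.09% to 11.8%, of day 3 libraries 3.63% to 6.16%, of day 5 libraries 3.31% to 4.22% and of day 7 libraries 0.675% to 2.07%, against 0.088% to 0.126% in juveniles. The 70 took 1% to 1.12% in day 0 libraries, 2.39% to 3.04% in day 3 libraries, 2.9% to 3.55% in day 5 libraries and 3.52% to 4.95% in day 7 libraries, against 0.0889% to 0.156% in juveniles. At day 5 the 2315 thus held 3.71% ± 0.465 and the 70 held 3.23% ± 0.322 of the counts (SD, n = 3), and the library ranges overlapped. At day 7 every library had more counts in the 70 than in the 2315, and at day 0 every library had fewer. Day 0 and day 7 chose these sets, so the levels at those days are a description. The 10 leading transcripts held 92% of the counts of the 70 at day 5 and 44.3% of those of the 2315.

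**Figure D4:**
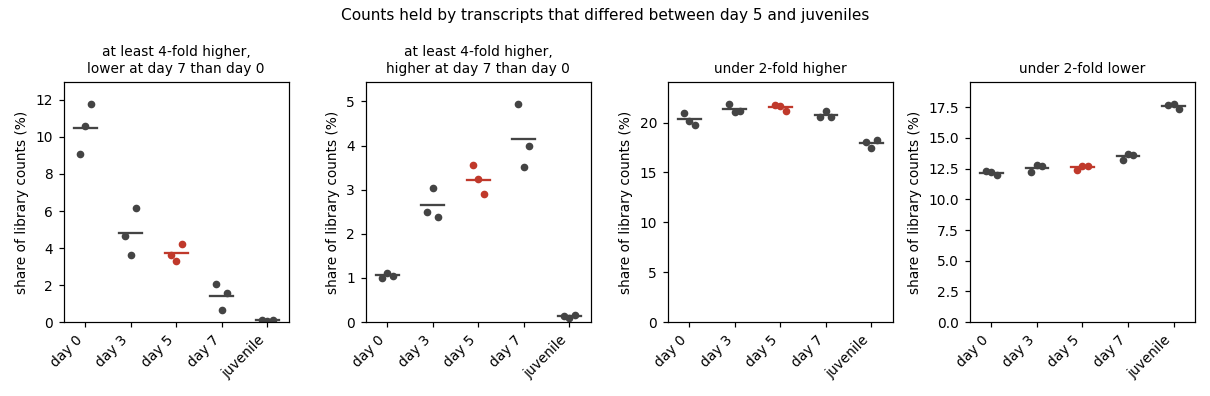
Share of each library's counts (vertical axes, percent, from 0) held by 4 sets of transcripts, by group; dots are libraries, bars are group means and day 5 is in red. At day 5 the 2315 falling transcripts (first panel, 3.71%) and the 70 rising ones (second panel, 3.23%) held similar shares, and both are near 0 in juveniles. In the 2617 and 2909 transcripts with differences under 2-fold (the 2 panels on the right), juveniles lay a few percent of the counts from all trunk groups. The comparison of day 5 with juveniles chose all 4 sets, so a gap from juveniles was favoured in advance.

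Transcripts with small differences held more of the counts, but the gap between the groups was wider for those at least 4-fold higher. The latter took 7.04% ± 0.335 of day 5 counts and 0.25% ± 0.0528 of juvenile counts. The 2617 transcripts higher at day 5 by less than 2-fold summed to 21.6% ± 0.353 of day 5 counts and 18% ± 0.374 of juvenile counts (SD, n = 3). Their median was 34.3 ± 0.933 CPM at day 5 and 26.3 ± 0.113 CPM in juveniles, and their median fold was 1.29. At days 0, 3 and 7 they took 20.3% ± 0.628, 21.4% ± 0.409 and 20.8% ± 0.352, so all trunk groups lay within a narrow band above juveniles. Day 5 and juvenile libraries chose the set. The gap of day 5 above juveniles was thus fixed in advance, and that of the other trunk groups was favoured. In the comparison of day 7 with day 0, 1023 (39.1%) were lower and 254 (9.71%) higher, where 16.0% and 7.87% of all tested transcripts were, with a median log2 fold change of -0.15. All tested transcripts include 23167 with a mean under 1 CPM, a class with fewer calls between day 5 and juveniles. Whether the larger shares in both directions go with abundance was not tested. The 1023 became 642 of 1763 and 655 of 1697 without juvenile replicate 1 and 2.

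Transcripts lower at day 5 than in juveniles mostly differed by little. The 2909 under 2-fold summed to 12.6% ± 0.187 of day 5 counts and 17.6% ± 0.18 of juvenile counts, with a median of 6.68 ± 0.155 CPM at day 5 and 9.29 ± 0.201 CPM in juveniles (SD, n = 3). By library, the shares were 12.4%, 12.7% and 12.7% at day 5 and 17.7%, 17.8% and 17.4% in juveniles. These libraries chose the set, so a gap between the groups was fixed in advance. Among all 3515 lower transcripts, 766 (21.8%) were higher at day 7 than at day 0, where 7.87% of all tested transcripts were, and 307 (8.73%) were lower, where 16.0% were. The 307 became 201 without day 5 replicate 2, 155 and 191 without day 7 replicate 1 and 2, and 195 and 202 without juvenile replicate 2 and 3. The 766 became 476 without day 5 replicate 2, 454 and 475 without day 7 replicate 1 and 2, and 508 and 455 without juvenile replicate 1 and 2.

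Days 3 and 7, on either side of day 5, were also compared with each other, again without a library of day 5 or juveniles. Of the 5539 transcripts above juveniles at day 5, 337 (6.08%) had a lower and 15 (0.271%) a higher level at day 7 than at day 3, where 0.787% and 0.424% of all tested transcripts did. Of the 3515 below juveniles, 114 (3.24%) were higher and 0 lower by edgeR; at an unadjusted p under 0.05 these were 852 and 28, while DESeq2 found 196 higher and 3 lower among its own 2961. The calls thus ran mostly toward the juvenile level on both sides. The 15 became 7 without day 3 replicate 1. The 114 became 44 without day 3 replicate 1, and 60 and 42 with replicate 1 or 2 of day 7 left out. The 337 became 201 when only the groups compared were fitted, and DESeq2 called 831 of its own 6349.

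The size of the earlier step depended on the fit. In the comparison of day 3 with day 0, 816 of the 5539 (14.7%) were lower and 312 (5.63%) higher, where 5.48% and 3.02% of all tested transcripts were. Both shares were the larger ones, and abundance was not matched. Of the 3515, 376 (10.7%) were lower and 163 (4.64%) higher, so more were lower than higher on both sides; at a minimum count of 50 the order on the second side turned, with 431 lower and 519 higher. Same-numbered libraries of days 3 and 0 deviated together, replicate 3 most clearly, while replicates 1 and 2 were nearly interchangeable. With the replicate number as a block in the fit of all 15 libraries, the same 5539 held 2426 lower (43.8%) and 372 higher (6.72%). Of all tested transcripts, 11.6% were lower and 3.86% higher in that fit. The block also covers groups that the replicate numbers do not pair. The 3515 then held 414 lower (11.8%), a share near that of all tested transcripts, and 204 higher (5.80%). Fitted on the groups compared alone, 164 of 6714 higher transcripts (2.44%) had a lower level at day 3. Of the lower ones 15 were higher and 106 lower. The share of all tested transcripts in that fit is not given, so the 2.44% cannot be set against it. The 816 became 313 and 1462 without day 3 replicate 2 and 3, and 521 and 516 without juvenile replicate 1 and 2. The 376 became 199 and 232 without day 3 replicate 1 and 2, and the 163 became 52 without day 3 replicate 2, 103 with day 0 replicate 2 left out, 89 and 83 without day 5 replicate 1 and 2, and 87 and 83 without juvenile replicate 1 and 2.

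Direct tests of day 5 against its neighbours share the day 5 libraries with the comparison that chose the transcripts, so their counts are a description. From day 5 to day 7, 236 of the 5539 were lower and 5 higher at day 7, and 87 of the 3515 were higher and 0 lower (edgeR; 996 and 15 at an unadjusted p under 0.05, 220 and 1 by DESeq2). From day 3 to day 5, 1 of the 5539 was higher and 1 lower at day 5, and 4 of the 3515 were higher and 0 lower (edgeR; 183 and 318 at an unadjusted p under 0.05, 17 and 9 by DESeq2). Over all tested transcripts 0.520% were lower and 0.280% higher at day 7 than at day 5, and 0.0171% were higher and 0.00214% lower at day 5 than at day 3. Set against the same juveniles, days 3, 5 and 7 had 2234, 2454 and 474 transcripts at least 4-fold higher, and 678, 606 and 274 at least 2-fold lower; these counts share the juvenile libraries and also move with the spread within each day. The 236 became 140, 140 and 138 without day 5 replicate 1, 2 and 3, 148 without day 7 replicate 2, and it reached 366 when day 0 replicate 3 was left out. The 87 became 44, 24 and 45 without day 5 replicate 1, 2 and 3, 32, 31 and 55 without day 7 replicate 1, 2 and 3, 55 and 56 without juvenile replicate 1 and 3, and 138 without day 0 replicate 3. The edgeR counts under 10 in these 2 comparisons lay between 0 and 9 with any 1 library left out.

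Some transcripts of day 5 fragments gave no read in juveniles. With at least 10 counts in every day 5 library, 146 had 0 counts in all 3 juvenile libraries, and 0 transcripts met the reverse condition. Day 5 libraries were deeper; with all 6 thinned to 25735815 counts the numbers were 90 and 0. The 146 were scarce: the 145 that could be tested had a median of 0.518 CPM at day 5, with a range of 0.25 to 4.3 CPM, and 115 of them passed edgeR's test as higher than in juveniles. Taking 3 counts over the juvenile group as the limit that a count of 0 allows, the ratio of day 5 to juvenile levels was at least 8.35 to at least 143 across the 145, counting error only. All 146 had counts at day 0, and 131 of the 145 (90.3%) were lower at day 7 than at day 0, where 16.0% of all tested transcripts were. Their median stood at 1.39 CPM at day 0, 0.577 CPM at day 3 and 0.157 CPM at day 7, and none of the 146 was at 0 in all day 7 libraries.

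By rule, the 2 transcripts with the smallest adjusted p in each direction were taken from those at least 4-fold apart, with 10 CPM or more in the higher group and no overlap between groups; 496 transcripts on the higher side and 12 on the lower side met those conditions. GDAG01016573.1 had 11.2, 10.9 and 12.5 CPM at day 5 and 0.035, 0.0247 and 0.0645 CPM in juveniles, from 4 counts in total. Its log2 fold change was 8.06 (SE 0.22, edgeR adjusted p = 1.8e-12), while DESeq2 gave 8.19 with an SE of 0.73. The edgeR SE is worked back from the test's F statistic and understates the uncertainty from so few juvenile counts. The ratio of pooled counts was 288 with a 95% exact counting interval of 112 to 1060. Its level was 24.8 ± 3.14 CPM at day 0, 16.5 ± 0.524 CPM at day 3 and 4.68 ± 0.744 CPM at day 7, so day 5 lay between its neighbours with no overlap.

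GDAG01050977.1 had a similar course. It had 12.8, 12.5 and 13.2 CPM at day 5 and 0.035, 0.0247 and 0.0322 CPM in juveniles, a single count in each juvenile library. The log2 fold change was 8.6 (SE 0.27, edgeR adjusted p = 2.4e-11), while DESeq2 gave 8.76 with an SE of 0.85. Here too the edgeR SE understates the uncertainty from so few juvenile counts. The ratio of pooled counts was 428 with a 95% exact counting interval of 146 to 2080. From day 0 to day 7 its level went through 24.4 ± 4.09, 17.9 ± 1.81, 12.8 ± 0.326 and 4.28 ± 0.959 CPM (SD, n = 3). Between days 3 and 5 neither transcript passed the edgeR test (adjusted p = 0.28 and 0.53), while both were lower at day 7 than at day 5 (adjusted p = 0.00011 each). Tests of the named transcripts between day 5 and other days share the day 5 libraries that chose them, so they are a description.

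GDAG01085960.1 was lower at day 5, with 3.81, 3.94 and 4.19 CPM, against 20.1, 17.5 and 14 CPM in juveniles (log2 fold change -2.11, SE 0.15, edgeR adjusted p = 8.9e-08). Day 0 fragments had 18.1, 16.2 and 16.7 CPM, within the juvenile range, and the test of day 0 against juveniles was not passed (log2 fold change -0.02, SE 0.15, adjusted p = 0.94). It had fallen by day 3, at 3.76 ± 0.803 CPM against day 0 (log2 fold change -2.18, SE 0.15, edgeR adjusted p = 1.6e-06), and was at 5.76 ± 0.684 CPM at day 7. At day 7 it was still 2.99-fold below juveniles (edgeR adjusted p = 3.1e-06), and the tests of day 7 against days 3 and 5 were not passed (adjusted p = 0.058 and 0.14).

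GDAG01049826.1 was higher at day 7 than at day 0 (log2 fold change 3.93, SE 0.35, edgeR adjusted p = 3.4e-05) without reaching the juvenile level. It had 1.64, 1.71 and 2.62 CPM at day 5 and 45.8, 69.8 and 41 CPM in juveniles, -4.71 as a log2 fold change with an SE of 0.32 (edgeR adjusted p = 2.7e-06). Day 0 and day 3 fragments had 0.556 ± 0.103 and 0.766 ± 0.0694 CPM, and day 7 fragments 8.67 ± 3.18 CPM (SD, n = 3). Its log2 difference of day 7 over day 5 was 2.12, with an SE of 0.29 (edgeR adjusted p = 0.0068); from day 0 to 3 and from day 3 to 5 the test was not passed (adjusted p = 0.53 and 0.41), while from day 0 to 5 it was (log2 fold change 1.81, SE 0.37, edgeR adjusted p = 0.011). At day 7 it was still 6.02-fold below juveniles (edgeR adjusted p = 0.00017).

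**Figure D5:**
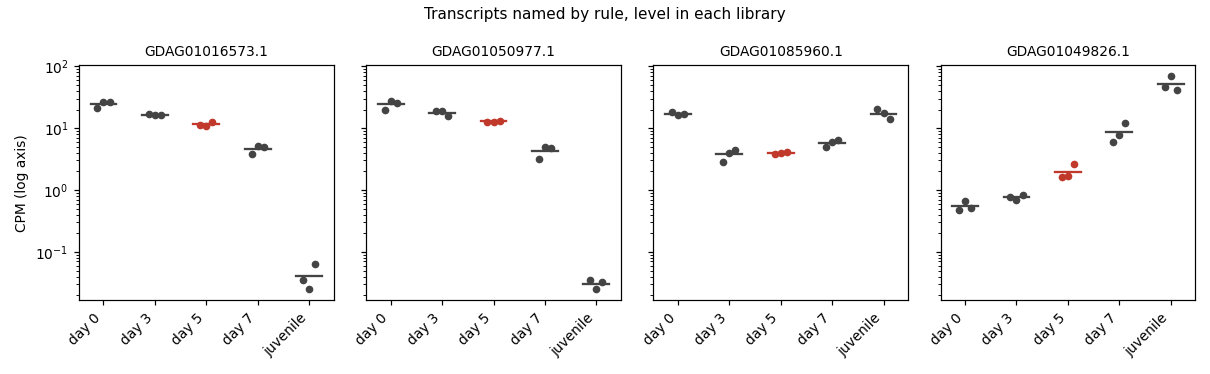
CPM in each library (log axis) of the 4 transcripts taken by the rule, by group; dots are libraries, bars are group means and day 5 is in red. The first pair declines from day 0 to day 7 and has at most 0.0645 CPM in juveniles; GDAG01085960.1 is low at days 3 to 7 beside 14 to 20.1 CPM in juveniles, and GDAG01049826.1 averages 8.67 CPM at day 7 beside 41 to 69.8 CPM in juveniles.

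Transcripts at least 2-fold below juveniles took more than 1 course. Of the 606 at least 2-fold below juveniles at day 5, 64 (10.6%) had a lower and 2 (0.33%) a higher level at day 3 than at day 0, where 5.48% and 3.02% of all tested transcripts did. With the replicate block, 68 of the 606 (11.2%) were lower and 4 (0.660%) higher, where 11.6% and 3.86% of all tested transcripts were. In that fit the share lower was thus near that of all tested transcripts. The 64 had medians of 7.25 ± 0.13 CPM at day 0, 2.11 ± 0.411 CPM at day 3, 2.12 ± 0.216 CPM at day 5 and 2.92 ± 0.223 CPM at day 7, against 9.37 ± 1.13 CPM in juveniles (SD over 3 library medians). Of the same 606, 38 (6.27%) were higher at day 7 than at day 3, where 0.424% of all tested transcripts were, and 0 were lower by edgeR (4 at an unadjusted p under 0.05, 1 by DESeq2). The 38 were a mixture: 14 of them (36.8%) had a lower level at day 3 than at day 0 and so were also among the 64, and 22 (57.9%) were higher at day 7 than at day 0. These had medians of 1.37 ± 0.111, 1.29 ± 0.0544, 1.74 ± 0.0664 and 2.63 ± 0.137 CPM at days 0, 3, 5 and 7, against 6.74 ± 0.766 CPM in juveniles. The 64 and the 38 were chosen with days 0, 3 and 7, and their levels at those days are a description.

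Day 5 was also set beside day 0 and juveniles at once, by group means and with no test. Transcripts at least 4-fold above juveniles and with a day 5 mean at least 4 times the day 0 mean numbered 22 (0.0471% of those tested). How many of all tested transcripts met the day 0 condition is not given, so neither an excess nor a lack is read from the counts here. In day 5 libraries they held 0.263%, 0.238% and 0.156% of counts, against 0.00615%, 0.0058% and 0.00524% in juveniles and 0.0284% to 0.0479% in day 0 libraries. Most of that came from 1 transcript with 2210, 1820 and 1150 CPM at day 5, against 10.9, 7.07 and 12.3 CPM in juveniles and 212 to 440 CPM at day 0. The set was already at 0.145% to 0.234% at day 3, and at 0.174% to 0.316% at day 7, both overlapping day 5. At 2-fold bounds, 116 transcripts (0.248% of those tested) stood above both, with 2.85% ± 0.319 of day 5 counts, 0.124% ± 0.0283 of juvenile counts and 0.861% ± 0.0487 of day 0 counts (SD, n = 3). At the same bounds in the other direction, 91 transcripts (0.195% of those tested) were at least 2-fold below juveniles with a day 5 mean at most 1/2 of the day 0 mean. They held 0.0657% ± 0.0122 of day 5 counts, 0.26% ± 0.0122 in juveniles and 0.137% ± 0.014 at day 0 (SD, n = 3), with 0.0463% ± 0.00856 at day 3 and 0.0962% ± 0.023 at day 7.

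Records with identifiers from outside the assembly project that gave most of the table made up 513 of the tested transcripts. Of these, 96 (18.7%) were higher at day 5 than in juveniles and 85 (16.6%) were lower, against 11.8% and 7.42% of the 46223 assembly records. At least 4-fold higher were 18 (3.51%, against 5.25% of all tested transcripts), and at least 2-fold lower 7 (1.36%, against 1.30%). Nearly all outside records, 513 of 531, had enough counts to be tested, against 46223 of 91522 assembly records. The share called was larger among abundant transcripts, and abundance was not matched between the kinds of record. Whether the higher shares called go with abundance was not tested. No gene names come with either kind of identifier, and several records can stand for 1 gene.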

How the data were processed

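The values deposited by the authors are unnormalized read counts with a column for each library; whole numbers and unequal column totals show this. Bowtie2 is named in the submitters' processing notes, and the sources used here give no version, counting tool or target sequence set. The TruSeq kit named in the labels' protocols does not mark strand, so reads from opposite strands of an overlap cannot be told apart. Of the 92053 records, 280 had no count and 1298 had counts identical to another row, so transcripts are not genes.

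Records passing filterByExpr (minimum count 10, minimum total 15; 46736 records) received TMM factors (trimmed mean of M-values) of 0.893 to 1.12 and were fitted with edgeR 4.0.16 (limma 3.58.1, R 4.3.3) in 1 robust quasi-likelihood model of 15 libraries with 10 residual degrees of freedom. The median log2 fold change of day 5 over juvenile was -0.04. CPM use the scaled totals. Each SE given with an edgeR test is the absolute log2 fold change divided by the square root of the test's F statistic. The procedure was tested on simulated counts. DESeq2 1.42.0, other scalings, filters and sample sets, a test against a 2-fold bound and a replicate block were alternatives; groups came from sample titles. Replicates differed by more than sampling noise. Same-numbered libraries of days 3 and 0 had correlated deviations from their group means (r over transcripts 0.24, 0.174 and 0.515, each above 0.1). For that comparison a fit with a replicate block is therefore given beside the main fit, from the data and not the labels. The main fit uses no pairing, and its counts and tests of day 3 against day 0 are unpaired. In the other comparisons at least 1 such r was under 0.1. The rule for named transcripts, used where identifiers have no gene names, also required a 4-fold difference, a mean of 10 CPM or more in the higher group, no overlap, and passed over near-copies within 10% of each other. The groups, sets and rules were chosen with earlier results of these data known. Intervals and limits from counts cover counting error only.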

Additional observations from a re-analysis of the deposited data

Results flagged for a closer look

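For 3 of the 4 transcripts taken by the rule, the difference from juveniles at day 7 was unlike that at day 5, by the edgeR test of day 7 against day 5 in the fit of all libraries. The day 5 libraries also chose these transcripts for a large difference from juveniles. A smaller difference at day 7 was thus favoured in advance, and the values are a description. GDAG01016573.1 stood 6.76 above juveniles on the log2 scale at day 7 and 8.06 at day 5, a difference of -1.3 (SE 0.12, edgeR adjusted p = 0.00011). GDAG01050977.1 stood 7.01 above juveniles at day 7 and 8.6 at day 5, a difference of -1.58 (SE 0.15, edgeR adjusted p = 0.00011). GDAG01049826.1 stood at -2.59 at day 7 and at -4.71 at day 5, a difference of 2.12 (SE 0.29, edgeR adjusted p = 0.0068). For GDAG01085960.1 the difference of 0.53 did not pass the test (edgeR adjusted p = 0.14).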

How the results depend on the processing

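The labels give every group replicates 1 to 3. Day 5 and juvenile libraries of the same number did not deviate together (r over transcripts 0.026, -0.044 and 0.02), so the numbers do not pair them; nor do they pair day 7 with day 0 (-0.018, 0.266 and 0.475) or with day 3 (-0.041, 0.341 and 0.579). Among days 3 and 0, each day 3 library correlated best with its own number, by little for replicate 1 (0.24, against 0.231 with replicate 2) and replicate 2 (0.174, against 0.165 with replicate 1). Only replicate 3 stood clear there, so these values do not settle whether the numbers pair the libraries. With the replicate block, 6477 transcripts were higher and 3623 lower at day 5 than in juveniles; of the higher, 3023 were lower at day 3 against day 0, and 29 were higher and 1179 lower at day 7 against day 3; of the lower, 175 were higher and 1 lower at day 7 against day 3. The 4 transcripts taken by the rule kept their direction and stayed past the threshold under all 23 alternatives run for each. They were taken for their small adjusted p in much the same libraries, so this outcome was favoured in advance.

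DESeq2 called 6349 higher and 2961 lower; of its higher transcripts, 1269 were lower at day 3 against day 0, and 44 were higher and 831 lower at day 7 against day 3, and of its lower ones 196 were higher and 3 lower at day 7 against day 3. With no filter on low counts, 1790 transcripts were lower than in juveniles and 106 at least 4-fold lower; of the 1790, 390 were higher and 137 lower at day 7 against day 0, 91 were higher and 184 lower at day 3 against day 0, and 1 was lower at day 7 against day 3. A minimum count of 50 left 222 at least 2-fold and 38 at least 4-fold lower, fewer in part because scarce transcripts were not tested; of all lower ones, 1417 were higher at day 7 against day 0 and 519 at day 3 against day 0. A test against a 2-fold bound called 570 higher and 60 lower, by its construction fewer. In fits of the groups compared alone, 1429 of the higher and 464 of the at least 4-fold higher were lower at day 7 against day 0, 110 were higher and 164 lower at day 3 against day 0, and 201 were lower at day 7 against day 3; of the lower, 186 were lower at day 7 against day 0, 15 were higher and 106 lower at day 3 against day 0, and 43 were higher at day 7 against day 3. Without replicate 3 of days 0 and 3 and replicate 2 of day 7, 2836 of the higher were lower at day 3 against day 0, and 64 of the lower were higher at day 7 against day 3. Detection at 0.5 CPM turned the difference in detected transcripts to -1060, against 57 at 1 CPM. Transcripts at 0 in juveniles numbered 263 at a minimum of 5 counts, 64 at 20 counts and 90 after thinning. Except where a construction is named, the cause was not tested.

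With 1 library left out at a time, transcripts higher than in juveniles numbered 2817 to 6515 and lower 1965 to 3736; at least 2-fold, 1120 to 3377 and 454 to 692; at least 4-fold, 846 to 2746 and 67 to 109. The difference in their summed share of counts, 11 and -5.69 percentage points with all libraries, was 9.36 to 10.5 for the higher and -4.73 to -3.81 for the lower. At day 7 against day 0, the higher transcripts held 296 to 469 higher and 1464 to 3944 lower, the lower ones 454 to 779 and 155 to 321, and the at least 4-fold higher ones 54 to 77 and 723 to 2583. At day 3 against day 0, the higher held 215 to 378 higher and 313 to 1462 lower, and the lower 52 to 148 and 199 to 373. At day 7 against day 3 these were 7 to 19 and 242 to 417, and 42 to 132 and 0 to 2. At day 7 against day 5 they were 1 to 9 and 138 to 366, and 24 to 138 and 0 to 1. At day 5 against day 3 they were 1 to 8 and 0 to 5, and 1 to 7 and 0 to 2. Depth limits calls among scarce transcripts, and 3 libraries a group limit all of them.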
